A study of Homo sapiens with 24 samples.

Results

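The genes described here are 10 members of the NF-kB response: IER3, TNIP1, NFKBIA, TNFAIP3, CXCL8, CXCL1, IL6, CCL2, BIRC3, and RELB. They were taken by symbol from a table of 43037 genes, and all 10 were found in it and reached 5 CPM (tags of a gene relative to all tags of its library) in at least 1 library, as did 12327 genes in all. The list was chosen by earlier results on these data, including the levels of IER3 and TNIP1 in T98G, so the comparison within T98G, and the levels of IER3 and TNIP1 in T98G beside those of other lines, are given as a description with no test. The study also names TNIP1 as a hub gene of modules that separated “WWOX” from “Vec” in U87MG, T98G, and U251MG of these data. Its changes in these lines are thus not independent of its choice. The 5′ ends of capped transcripts (CAGE) were measured in 4 human glioblastoma cell lines. Each of U87MG, T98G, U251MG, and DBTRG-05MG was present as a “Vec” variant, stably transduced with the control Puro-Blank Lentivirus, and as a “WWOX” variant, stably transduced with the pLenti-GIII-CMV-GFP-2A-Puro vector of the GIPZ system to overexpress the tumor suppressor WWOX. All 8 groups had thus been exposed to lentivirus and puromycin, and each consisted of 3 libraries, 24 in total. The WWOX transgene is driven by the CMV promoter, and the 3 libraries of a group were biological replicates per the study's methods, which do not state whether these were separate transductions. U87MG and U251MG were grown in EMEM, T98G in MEM, and DBTRG-05MG in RPMI, so that line and medium cannot be told apart except between U87MG and U251MG.

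NF-kB is a family of dimeric transcription factors kept in the cytoplasm by I-kB proteins. Cytokine receptors and Toll-like receptors activate the I-kB kinase complex, I-kB is degraded, and the dimers enter the nucleus and switch on genes with kB sites in their promoters. Some of these targets are brakes on the pathway itself: NFKBIA encodes the inhibitor I-kB alpha, TNFAIP3 the ubiquitin-editing enzyme A20, and TNIP1 its partner ABIN1. Others act on the surroundings, such as the neutrophil-attracting chemokines CXCL8 and CXCL1, the monocyte-attracting chemokine CCL2, and the cytokine IL6. IER3 and BIRC3 influence cell survival, and RELB encodes a subunit of the non-canonical arm. In glioblastoma, NF-kB activity and the secretion of these factors are known features of the mesenchymal state.

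The promoters show what these genes share in sequence. Windows of the 250 bases before a transcript start were available in the RefSeq table (GRCh38.p14) for 7 of the 10 members, and IER3, CCL2, and RELB had no entry. Both strands were searched for the consensus kB decamer and for a short form, GGNNNTTCC, which may overlap it. The decamer occurred in 6 of the 7 members with a window and the short form in 7 of 7, while 9.96% and 17.1% of 35116 promoters held them, respectively. A match describes letters only, and no binding was measured. The stretches printed here, read 5′ to 3′ on the strand of the gene, are those of 6 members around their matches, which are in capitals. The seventh, TNIP1, had its decamer, GGGACTTTCC, 42 to 33 bases before one of its starts.
CXCL1, chr4:73869284-73869378, plus strand: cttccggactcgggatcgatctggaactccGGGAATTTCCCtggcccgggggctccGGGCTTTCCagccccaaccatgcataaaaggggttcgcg
CXCL8, chr4:73740448-73740516, plus strand: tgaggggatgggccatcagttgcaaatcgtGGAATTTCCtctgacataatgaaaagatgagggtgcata
TNFAIP3, chr6:137867162-137867213, plus strand: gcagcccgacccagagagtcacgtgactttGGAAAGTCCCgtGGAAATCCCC
NFKBIA, chr14:35404791-35404999, minus strand: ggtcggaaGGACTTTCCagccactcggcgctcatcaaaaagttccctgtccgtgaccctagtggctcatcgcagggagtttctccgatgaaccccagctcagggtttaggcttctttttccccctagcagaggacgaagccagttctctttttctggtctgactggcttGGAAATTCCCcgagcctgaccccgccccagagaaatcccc
IL6, chr7:22727097-22727146, plus strand: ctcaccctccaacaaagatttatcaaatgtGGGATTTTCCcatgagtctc
BIRC3, chr11:102317255-102317388, plus strand: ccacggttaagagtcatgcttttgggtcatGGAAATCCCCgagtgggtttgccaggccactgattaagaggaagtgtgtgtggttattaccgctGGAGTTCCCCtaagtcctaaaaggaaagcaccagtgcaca

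CXCL1 has 2 separate capital runs in its stretch, the first holding the decamer on both strands and the second the short form. TNFAIP3 and BIRC3 have 2 decamers each, IL6 and NFKBIA 1, and CXCL8 only the short form. In hg38 with GENCODE 44 positions, the members lie on 8 chromosomes. IER3 (ENSG00000137331.12) spans chr6:30743199-30744548 on the minus strand and TNFAIP3 (ENSG00000118503.15) spans chr6:137867214-137883314 on the plus strand. TNIP1 (ENSG00000145901.16, chr5:151029945-151093577) and NFKBIA (ENSG00000100906.11, chr14:35401079-35404749) are on the minus strand. CXCL8 (ENSG00000169429.11, chr4:73740519-73743716) and CXCL1 (ENSG00000163739.5, chr4:73869393-73871308) belong to the CXC chemokine cluster of chromosome 4. IL6 (ENSG00000136244.12) spans chr7:22725884-22732002, CCL2 (ENSG00000108691.9) chr17:34255274-34257208, BIRC3 (ENSG00000023445.16) chr11:102317484-102339403, and RELB (ENSG00000104856.14) chr19:45001461-45038192, all on the plus strand.

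The libraries held 10756072 to 16953689 tags on genes, with a median of 14584829, and 3 tags corresponded to 0.177 to 0.279 CPM. In CAGE, a transcript gives a tag at its start, so that levels of different genes can be compared without a correction for length. Of the U251MG “WWOX” libraries, 2 stood apart: the correlation of log2 values with the rest of their group was 0.922 for WWOX 1 and 0.919 for WWOX 2, against 0.952 to 0.992 in the other libraries, so U251MG is given with and without single libraries. WWOX itself was measured at 37.9 ± 3.48 CPM in U87MG “Vec” and 62.7 ± 2.79 in “WWOX” (SD, n = 3), and did not pass the limma test there (log2FC 0.66, adjusted p = 0.136). The log2FC of WWOX was 0.38 in T98G (adjusted p = 0.553), −0.0080 in U251MG (adjusted p = 1), and 0.39 in DBTRG-05MG (adjusted p = 0.770), and the libraries did not overlap in U87MG and DBTRG-05MG. In U251MG, WWOX was at 31.4, 36.8, and 32.1 CPM in “Vec” and at 56.7, 17.4, and 38.0 in “WWOX”. There, WWOX 2 was below every “Vec” library. A transcript that starts inside the vector need not be counted at the WWOX gene. Per the study's methods, efficient transduction was established on protein by Western blot. Markers of other cell types were checked. The leukocyte marker PTPRC (CD45) did not exceed 0.0930 CPM and AIF1 and FCGR3A had no tag, while of 10 leukocyte and myeloid genes CD74, CSF1R, and LAPTM5 reached 5 CPM, and their sum was 145 to 247 CPM in U87MG “Vec”, 194 to 232 in U87MG “WWOX”, and lower in the other lines. Of 10 glioma and glial markers, 8 reached 5 CPM in a library, whereas OLIG2 and AQP4 peaked at 3.57 and 1.03 CPM. By group, 4 markers reached that level in U87MG “Vec” and 4 in T98G “Vec”, with 5 in each matching “WWOX” group. The count was 6 for each DBTRG-05MG group and 8 for each U251MG group. S100B, NES, and SOX2 averaged at most 1.93 CPM in U87MG “Vec” and 0.360 in T98G “Vec”. The mesenchymal marker CD44 was at 678 to 3520 CPM in all libraries. CHI3L1 averaged 443 and 486 CPM in U87MG “Vec” and “WWOX”, but 0.481 and 0.632 in those of DBTRG-05MG. The astrocyte marker GFAP averaged 2655 CPM in U251MG “Vec” and at most 6.12 in the groups of the other lines.

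The “Vec” libraries show what each line expresses at baseline. U87MG had the highest levels of TNIP1, NFKBIA, and IER3, whereas DBTRG-05MG had the highest TNFAIP3 and CXCL1 with almost no IER3 or IL6. T98G combined high IL6 with low CXCL8, and U251MG lacked tags of CXCL1. Hereinafter, differences between lines are log2FC of limma with Benjamini-Hochberg adjusted p over all 12327 tested genes, on log2 of scaled CPM plus 0.5, with a threshold of 0.05. When U87MG was set against another line, 7 of the 10 members passed with U251MG (38.6% of all tested genes did) and 7 with DBTRG-05MG (44.1%), while 4 separated U251MG from DBTRG-05MG (31.6%). Of the 8 members other than IER3 and TNIP1, 4 differed between U87MG and T98G (39.8%), and T98G differed in 2 from U251MG (32.3%) and in 3 from DBTRG-05MG (41.2%). Without the scaling, the median log2FC of all genes was −0.28 in place of −0.075 between U87MG and DBTRG-05MG and −0.20 in place of −0.053 between U87MG and U251MG.

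**Figure D1:**
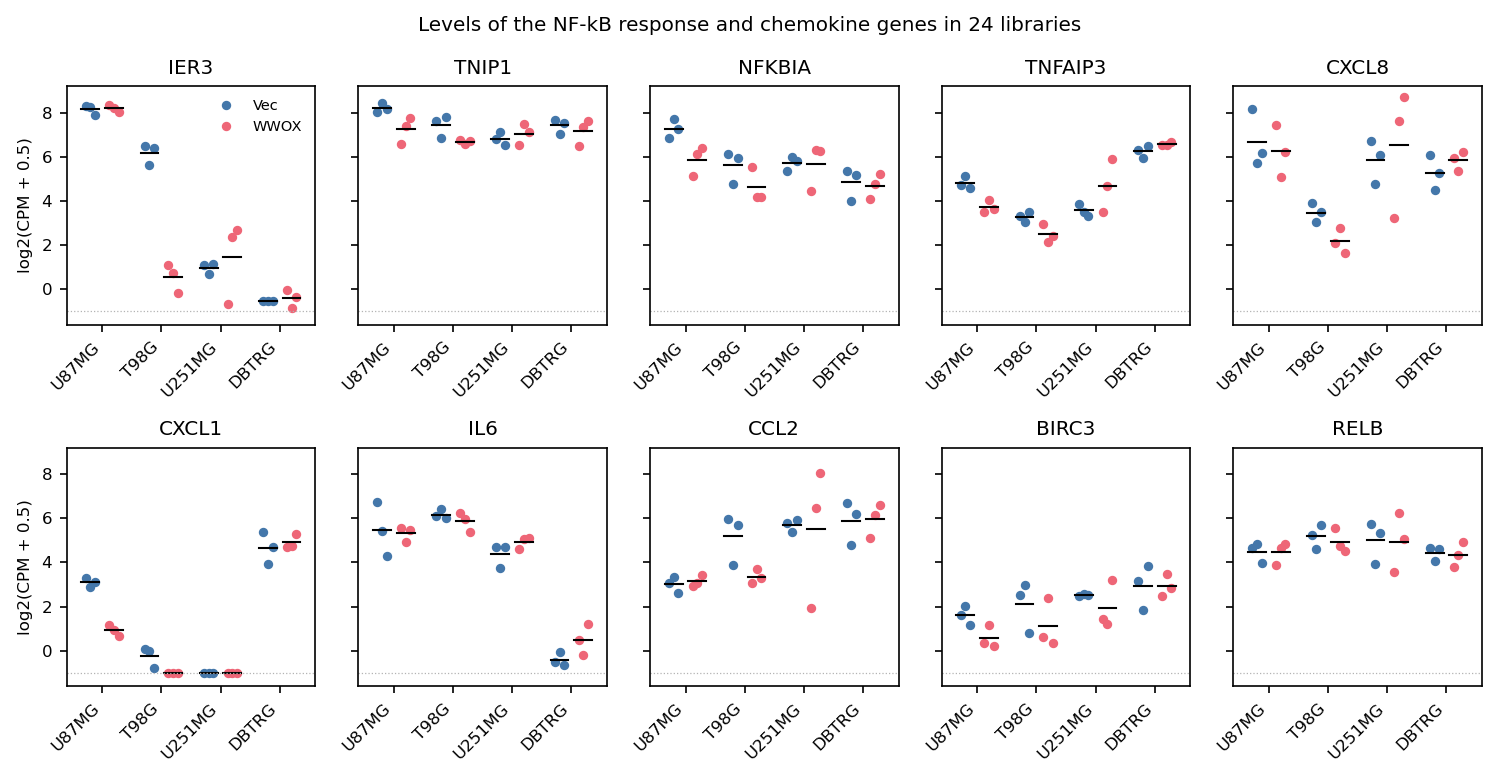
Level of each of the 10 genes as log2(CPM + 0.5), vertical axis, in the 24 libraries (points), by line and variant (blue, “Vec”, and red, “WWOX”), with the group mean as a bar and a dotted line at 0 CPM. IER3 spans from 327 CPM in a U87MG library to under 1 CPM in DBTRG-05MG, CXCL1 is at 0 in all U251MG libraries, and TNIP1 is at 89.5 CPM or above in every library.

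Among the brakes, TNIP1 was expressed most evenly. Its “Vec” levels were 263, 347, and 285 CPM in U87MG, 195, 115, and 225 in T98G, 205, 132, and 185 in DBTRG-05MG, and 112, 137, and 92.8 in U251MG. U87MG was higher than U251MG by 1.56 (adjusted p = 0.00266) and than DBTRG-05MG by 1.01 (adjusted p = 0.0386), and the latter call was lost without any of the U87MG “Vec” libraries, without DBTRG-05MG Vec 2 or Vec 3, and under 2 alternatives. NFKBIA was at 114, 206, and 153 CPM in U87MG, above every library of U251MG (40.5, 63.2, and 55.6), T98G (69.2, 26.5, and 61.8), and DBTRG-05MG (40.7, 15.6, and 35.2). The step from U87MG to U251MG was 1.71 ± 0.558 (log2FC ± SE, adjusted p = 0.0181), and the lower 3 lines did not differ as neighbors. The call between U87MG and U251MG was lost without U87MG Vec 2 or U251MG Vec 1.

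TNFAIP3 had another order. It was highest in DBTRG-05MG, with 78.3, 61.2, and 89.6 CPM, followed by U87MG with 25.8, 34.2, and 23.7, U251MG with 14.2, 10.9, and 9.58, and T98G with 9.42, 7.77, and 10.8. The libraries of DBTRG-05MG, U87MG, and U251MG did not overlap, and both steps passed the test (1.22 ± 0.401, adjusted p = 0.0169, and 1.40 ± 0.401, adjusted p = 0.00764), while U251MG and T98G overlapped (adjusted p = 0.841). The first of these calls was lost without U87MG Vec 3 or DBTRG-05MG Vec 3.

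IER3, an immediate early gene that modulates apoptosis, had the widest range. Its “Vec” level was 316, 304, and 236 CPM in U87MG, 88.8, 48.9, and 84.3 in T98G, and 1.62, 1.11, and 1.74 in U251MG. In DBTRG-05MG, each “Vec” library held 3 tags of IER3. By summed tags, the CPM of U87MG was 1454 times that of DBTRG-05MG (95% exact binomial interval 766 to 3180, counting error only). All U87MG libraries were above all T98G libraries, and these above all U251MG libraries, by 1.98 and 5.34 on the log2 scale. The step from U251MG to DBTRG-05MG was called at an adjusted p of 0.0476 and lost under 6 of 11 alternatives. BIRC3, which encodes the inhibitor of apoptosis cIAP2, was low in all lines. It was at 8.51, 3.09, and 13.8 CPM in DBTRG-05MG, 5.11, 5.49, and 5.29 in U251MG, 5.34, 7.33, and 1.25 in T98G, and 2.56, 3.55, and 1.75 in U87MG, and no neighbors differed (adjusted p 0.536 to 0.744). RELB was at 14.9 to 53.1 CPM over the 12 “Vec” libraries, with overlapping lines (adjusted p 0.692 to 0.756 for neighbors).

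The secreted members separated the lines in different ways. CXCL8 was at 282, 52.3, and 72.1 CPM in U87MG, 105, 26.8, and 67.7 in U251MG, 66.3, 21.8, and 37.3 in DBTRG-05MG, and 14.3, 7.77, and 10.7 in T98G. Replicates differed up to several-fold within a line, no neighbors passed, and U87MG exceeded T98G by 3.22 (adjusted p = 0.00971), a call lost without U87MG Vec 1. CXCL1 was at 41.2, 14.6, and 25.4 CPM in DBTRG-05MG, 9.23, 6.95, and 8.28 in U87MG, and 0.562, 0.501, and 0.0778 in T98G (8, 8, and 1 tags), and had no tag in U251MG. DBTRG-05MG was higher than U87MG by 1.35 (adjusted p = 0.000821) and U87MG was higher than T98G by 3.42 (adjusted p = 2.67e-09). Against the floor of 3 tags in each library, CXCL1 was at least 119-fold higher in DBTRG-05MG and at least 35.8-fold higher in U87MG than in U251MG. T98G against U251MG was called at an adjusted p of 0.0460 and lost under 4 alternatives, and without T98G Vec 1, T98G Vec 2, or any U251MG “Vec” library.

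IL6 and CCL2 ran in opposite orders at one end. IL6 was at 67.2, 85.1, and 63.0 CPM in T98G and at 105, 41.7, and 19.1 in U87MG, which overlapped, then at 25.5, 12.9, and 25.8 in U251MG, and at 0.196, 0.451, and 0.132 in DBTRG-05MG. The step from U251MG to DBTRG-05MG was 4.78 ± 0.477 (adjusted p = 4.14e-08), and that from U87MG to U251MG, whose libraries overlapped, was 1.25 (adjusted p = 0.0426), a call lost under 4 alternatives and without U87MG Vec 1, U87MG Vec 2, U251MG Vec 2, or T98G Vec 1. CCL2 was highest in DBTRG-05MG, with 104, 27.2, and 72.3 CPM, followed by 54.1, 41.5, and 59.9 in U251MG, 61.2, 14.3, and 51.5 in T98G, and 7.95, 9.50, and 5.61 in U87MG. U87MG was below every other library, and had a log2FC of −2.53 against U251MG (adjusted p = 0.0389) and −2.68 against DBTRG-05MG (adjusted p = 0.0257), while T98G and U87MG, neighbors in the order, did not pass (adjusted p = 0.0734). The call against U251MG was lost without any 1 of the 6 “Vec” libraries of these lines and under 2 alternatives, and that against DBTRG-05MG without Vec 1 or Vec 3 of either line.

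The comparison of “WWOX” with “Vec” in U87MG asked which members changed with the transgene in that line. CXCL1 fell, the brakes NFKBIA, TNFAIP3, and TNIP1 were lower in all “WWOX” than in all “Vec” libraries without passing the test, and IER3, CCL2, and RELB had nearly equal means. CXCL1 was at 9.23, 6.95, and 8.28 CPM in “Vec” (130, 90, and 118 tags) and at 1.71, 1.43, and 1.10 in “WWOX” (28, 21, and 13 tags), so that every “WWOX” library lay far below every “Vec” library. The means were 8.15 ± 1.14 and 1.41 ± 0.306 CPM (SD, n = 3), and the log2FC was −2.25 ± 0.298 (SE, adjusted p = 2.44e-05), a 4.77-fold change on the log2(CPM + 0.5) scale. In bulk RNA, fewer expressing cells and less RNA per cell cannot be told apart. CXCL1 passed in all 11 alternatives and without any of the 24 libraries. It was the only one of the 10 members past the threshold, where 3.2% of all tested genes were called and 1.66% were called lower.

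NFKBIA in U87MG was at 114, 206, and 153 CPM in “Vec” and at 34.1, 68.6, and 83.5 in “WWOX”, a log2FC of −1.45 ± 0.558 (adjusted p = 0.234). TNFAIP3 was at 25.8, 34.2, and 23.7 CPM in “Vec” and 10.8, 15.9, and 11.8 in “WWOX”, with a log2FC of −1.15 ± 0.401 (adjusted p = 0.157). TNIP1 was at 263, 347, and 285 CPM in “Vec” and 95.6, 169, and 212 in “WWOX”, with a log2FC of −1.04 ± 0.388 (adjusted p = 0.212). In these 3 genes and in CXCL1 the variants did not overlap, which makes 4 of 10 members with all “WWOX” libraries lower, where 7.57% of all tested genes had this. As TNIP1 is a hub gene that the study found in these data, this count is a description. TNFAIP3 passed in U87MG (limma, adjusted p = 0.0160) once U251MG WWOX 1, which shares the estimate of the spread, was left out of the model. It did not pass when any single U87MG library was left out (limma, adjusted p 0.183 to 0.564).

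The other U87MG members overlapped. CXCL8 was at 282, 52.3, and 72.1 CPM in “Vec” and 171, 33.9, and 74.0 in “WWOX” (log2FC −0.50 ± 0.955, adjusted p = 0.989), and the first library of each variant was the highest. IL6 was at 105, 41.7, and 19.1 CPM against 46.0, 29.996, and 44.4 (−0.21, adjusted p = 0.999), and BIRC3 at 2.56, 3.55, and 1.75 CPM against 0.795, 1.76, and 0.678 (−1.07, adjusted p = 0.531). IER3 averaged 285 ± 43.0 CPM in “Vec” and 293 ± 32.5 in “WWOX”, CCL2 7.69 ± 1.96 and 8.46 ± 1.75, and RELB 22.7 ± 6.54 and 22.6 ± 7.26 (SD, n = 3). In total, 9 of 10 members had a log2FC below 0, as 51.9% of all tested genes did, and the members' median was −0.77 while that of all tested genes was −0.0048.

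**Figure D2:**
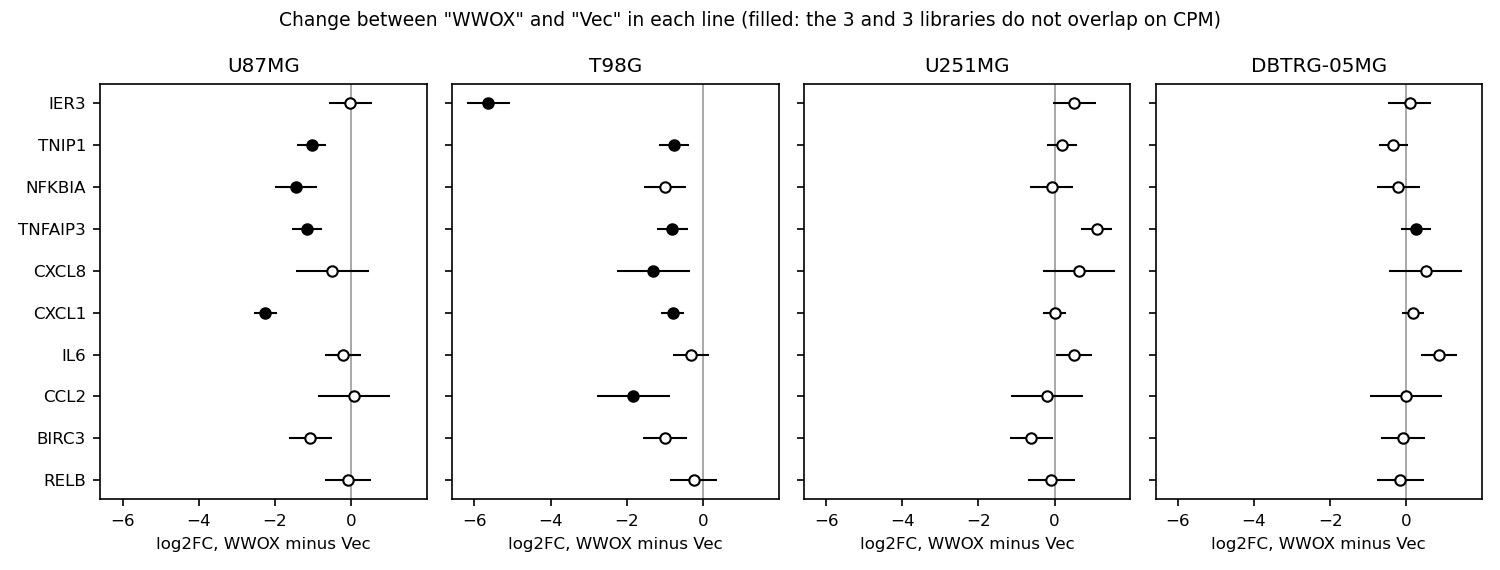
Change of the 10 genes between “WWOX” and “Vec” in each line, as log2FC of scaled CPM with a pseudocount (horizontal axis, points) ± SE of the model (lines). Points are filled where the 3 “WWOX” and 3 “Vec” libraries did not overlap on CPM, which holds for 4 genes in U87MG, 6 in T98G, none in U251MG, and 1 in DBTRG-05MG.

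In T98G, the values served in choosing the members and are described without a test. IER3 was at 88.8, 48.9, and 84.3 CPM in “Vec” and at 1.67, 1.19, and 0.396 in “WWOX” (18, 16, and 6 tags), which brought T98G from a high to a low level of this gene (74.0 ± 21.9 and 1.09 ± 0.645 CPM, log2FC −5.63). The genes on both sides of IER3 did not show this, with a log2FC of −0.19 for FLOT1, 467 bases away, and −0.48 for DDR1. TNIP1 was at 195, 115, and 225 CPM in “Vec” and 107, 94.0, and 104 in “WWOX” (log2FC −0.75). NFKBIA was at 69.2, 26.5, and 61.8 CPM against 45.8, 17.5, and 17.4, overlapping through Vec 2 (−0.99).

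CCL2 in T98G was at 61.2, 14.3, and 51.5 CPM in “Vec” and at 7.81, 12.6, and 9.44 in “WWOX”, a log2FC of −1.82 that became −2.54 without Vec 2, the lowest “Vec” library for 7 of the 10 members. CXCL8 was at 14.3, 7.77, and 10.7 CPM against 3.81, 6.31, and 2.64 (−1.30), and TNFAIP3 at 9.42, 7.77, and 10.8 against 7.16, 3.86, and 4.82 (−0.80). CXCL1, at 8, 8, and 1 tags in “Vec”, had no tag in “WWOX”, and was at least 1.63-fold lower against the floor of 3 tags per library. IL6 (67.2, 85.1, and 63.0 CPM against 74.1, 62.7, and 40.8), BIRC3 (5.34, 7.33, and 1.25 against 1.02, 4.68, and 0.792), and RELB (37.3, 23.5, and 51.8 against 47.0, 26.1, and 22.1) overlapped. All 10 members had a log2FC below 0, where 54.1% of all tested genes did, and 6 of 10 did not overlap on CPM before the scaling. Of all tested genes, 10.3% had all “WWOX” libraries lower on this measure and 1.14% passed the test. With the scaling, TNIP1 and TNFAIP3 overlapped, as WWOX 1 was above Vec 2. The median of the members was −0.90 and that of all genes −0.044. The genes of chromosome 17, which carries CCL2, had a median log2FC in T98G that was −0.31 beside that of all genes, and its part in the CCL2 values was not tested.

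In U251MG, no member passed with limma (0.316% of all tested genes did), 1 had an unadjusted p under 0.05, TNFAIP3 (11.5% of genes did), and DESeq2 on the recovered tags called that gene while edgeR and limma-voom called none. The “WWOX” libraries disagreed with each other more than in any other group. CXCL8 was at 105, 26.8, and 67.7 CPM in “Vec” and at 8.99, 197, and 411 in “WWOX”, and CCL2 at 54.1, 41.5, and 59.9 against 3.36, 87.9, and 266. In both chemokines WWOX 1 was below every “Vec” library and WWOX 2 and 3 were above every “Vec” library. The log2FC of CXCL8 was 0.65 with all libraries, 2.36 without WWOX 1, −0.13 without WWOX 2, and −0.33 without WWOX 3. The log2FC of CCL2 was −0.21, 1.64, −0.92, and −1.37 in the same order, so neither gene had a direction that held.

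TNFAIP3 in U251MG was at 14.2, 10.9, and 9.58 CPM in “Vec” and 10.8, 25.1, and 59.7 in “WWOX”. Its log2FC of 1.11 ± 0.401 (adjusted p = 0.260) became 1.79 without WWOX 1 (adjusted p = 0.00932), and 0.89 and 0.61 without WWOX 2 or WWOX 3. IER3 was at 1.62, 1.11, and 1.74 CPM against 0.137, 4.72, and 5.88, with a log2FC of 0.52 that became 1.60 without WWOX 1 and −0.11 without WWOX 2. RELB went from 53.1, 14.9, and 40.3 CPM to 11.2, 73.8, and 32.9, and NFKBIA from 40.5, 63.2, and 55.6 to 21.1, 78.1, and 75.1, with log2FC of −0.082 and −0.076. For RELB it was 0.70 without WWOX 1 and −0.95 without WWOX 2, and for NFKBIA 0.62 and −0.62.

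The remaining U251MG members spread less. TNIP1 was at 112, 137, and 92.8 CPM in “Vec” and 91.6, 176, and 137 in “WWOX” (0.19), IL6 at 25.5, 12.9, and 25.8 against 23.5, 33.0, and 33.7 (0.52), and BIRC3 at 5.11, 5.49, and 5.29 against 2.19, 1.79, and 8.79 (−0.61). CXCL1 had no tag in any of the 6 libraries. No member was free of overlap, where 9.45% of all tested genes were. The median of the members was 0.097, or 0.19 without CXCL1, beside 0 for all genes. Of 8 endothelial markers, CDH5 (VE-cadherin) was at 3.81, 2.71, and 2.01 CPM in U251MG “Vec” and 13.2, 4.43, and 7.17 in “WWOX”, which is given without a test as the gene reached 5 CPM in “WWOX” libraries of this line only, while PECAM1 had at most 3 tags in a library. KDR, the highest of the 8 in U251MG “Vec”, averaged 4.65 CPM there and 4.19 in “WWOX”, and ESAM averaged 0.312 and 0.343. The sum of the 8 markers was 4.49 to 10.1 CPM in U251MG “Vec” and 8.94 to 15.6 in “WWOX”, and their part in the values of the members was not tested.

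In DBTRG-05MG, none of the 10 members passed with limma (1.02% of all tested genes did), none had an unadjusted p under 0.05 (7.63% of genes did), and edgeR, limma-voom, and DESeq2 called none. TNFAIP3, highest in this line, was at 78.3, 61.2, and 89.6 CPM in “Vec” and 90.9, 92.7, and 99.9 in “WWOX”, a log2FC of 0.26 (adjusted p = 0.973). On CPM before the scaling it was the only member without overlap, in the direction of higher “WWOX”, which 10.9% of all tested genes showed. With the scaling, its WWOX 1 value was below that of Vec 3. CXCL1 was at 41.2, 14.6, and 25.4 CPM against 25.2, 26.1, and 38.4 (0.18), and CXCL8 at 66.3, 21.8, and 37.3 against 61.8, 40.0, and 72.9 (0.51).

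CCL2 in DBTRG-05MG was at 104, 27.2, and 72.3 CPM in “Vec” and 34.4, 70.3, and 96.4 in “WWOX” (−0.00035), and NFKBIA at 40.7, 15.6, and 35.2 against 16.8, 26.7, and 36.6 (−0.21). For both genes Vec 2 and WWOX 1 were the low libraries of their groups. TNIP1 was at 205, 132, and 185 CPM against 89.5, 162, and 195 (−0.34), BIRC3 at 8.51, 3.09, and 13.8 against 5.13, 10.6, and 6.58 (−0.081), and RELB at 24.8, 16.0, and 24.1 against 13.2, 19.8, and 30.1 (−0.15). IL6 and IER3 were close to the detection limit. IL6 was at 0.196, 0.451, and 0.132 CPM against 0.885, 0.389, and 1.85, with a log2FC of 0.86 (adjusted p = 0.747). IER3 had 3, 3, and 3 tags against 8, 1, and 4, a ratio of 1.41 (95% exact binomial interval 0.559 to 3.75, counting error only). The median of the members was 0.044, or 0.087 with IER3 set against the floor of 3 tags, beside 0.0036 for all genes.

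Next, the changes were compared between lines. In the mean of U87MG, U251MG, and DBTRG-05MG, 1 member, CXCL1, was called at −0.69 ± 0.172 (adjusted p = 0.0333), where 2.3% of tested genes were called. It rests on U87MG, as CXCL1 had no tag in U251MG and a log2FC of 0.18 in DBTRG-05MG, and it was lost under 8 of 10 alternatives. The difference between U87MG and DBTRG-05MG was called for CXCL1 at −2.43 ± 0.422 (adjusted p = 0.00121), the only member called where 1.87% of tested genes were, and it remained so in all alternatives and leave-outs. Between U87MG and U251MG, 2 members were called, where 1.58% of genes were. One is CXCL1, whose value of −2.25 is the U87MG change set against a line without tags of the gene and says nothing on a difference between the lines. TNFAIP3 differed by −2.26 ± 0.566 (adjusted p = 0.0421), a call lost under 4 alternatives and in 18 of 24 fits with 1 library left out. Between U251MG and DBTRG-05MG, limma called none of the members (0.576% of genes were called), as did edgeR, limma-voom, and DESeq2, and none had an unadjusted p under 0.05.

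CXCL8 and CXCL1 lie in one cluster with CXCL6, CXCL5, CXCL3, and CXCL2, which encode ligands of neutrophil receptors. The lines used this cluster differently. U87MG “Vec” had mean levels of 140 CPM of CXCL2, 135 of CXCL8, and 96.0 of CXCL3 but 8.15 of CXCL1 and no tag of CXCL6. T98G had 47.7 CPM of CXCL3 with 0.370 of CXCL2, and U251MG had CXCL8, CXCL3, and CXCL2 at 66.6, 31.6, and 21.6 CPM without CXCL1 or CXCL6. DBTRG-05MG was the only line in which all of these named genes except CXCL5, which was near 0 in every line, were expressed.

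**Figure D3:**
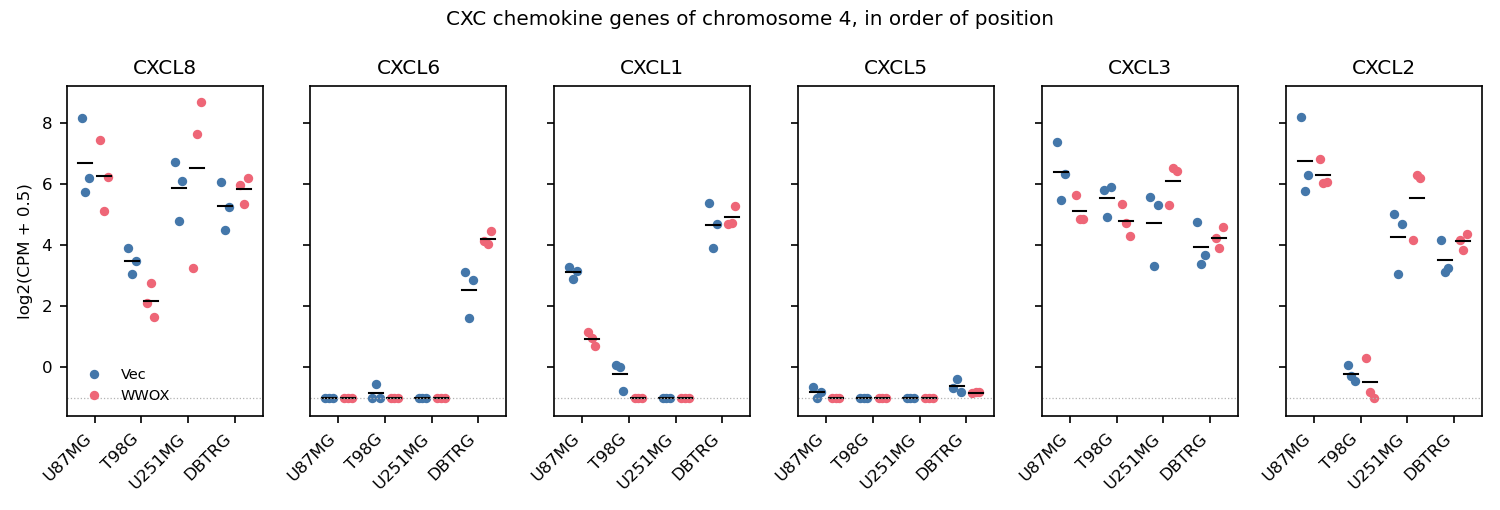
Levels of 6 CXC chemokine genes of the chromosome 4 cluster in order of position, as log2(CPM + 0.5), vertical axis, in the 24 libraries (points), by line and variant (blue, “Vec”, and red, “WWOX”), with group means as bars and a dotted line at 0 CPM. CXCL6 is seen in DBTRG-05MG, where the “WWOX” libraries (15.8 to 21.2 CPM) lie above the “Vec” libraries (2.58 to 8.12 CPM), and CXCL1 falls in U87MG.

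CXCL6, 20329 bases before CXCL1, rose in DBTRG-05MG from 8.12, 2.58, and 6.65 CPM to 17.1, 15.8, and 21.2 (1.61 ± 0.260, adjusted p = 0.00113), whereas CXCL1 beside it overlapped. Neither edgeR, DESeq2, nor a fit of the 6 DBTRG-05MG libraries by themselves called CXCL6 (adjusted p up to 0.382), whereas it remained called when single libraries were left out. CXCL3 in U87MG was at 164, 43.4, and 80.2 CPM in “Vec” and 49.3, 28.6, and 28.0 in “WWOX” (−1.34, adjusted p = 0.332), and CXCL2 at 289, 54.2, and 77.3 against 113, 64.4, and 66.2 (−0.51, adjusted p = 0.947). Neither passed, and in both genes Vec 1 was far above the other libraries, as in CXCL8. In U251MG, CXCL3 (39.4, 92.0, and 84.5 CPM in “WWOX”) and CXCL2 (17.3, 78.4, and 72.7) had WWOX 1 as the lowest library of the variant, as CXCL8 did. CXCL1, CXCL2, and CXCL3 are close paralogs, and as the treatment of reads that match several genes is not given in the sources used here, the split between them is uncertain.

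The rest of the pathway was examined through 93 other genes, of which 92 were in the table and 76 were tested. Neither the NF-kB subunits RELA, REL, NFKB1, and NFKB2 nor the 5 other I-kB proteins included a called gene in any line. NFKB1, the gene of p50, had a log2FC of −0.61 in U87MG (adjusted p = 0.234) and −0.52 in T98G without overlap of the variants in either line. Of the 4 subunits, 1 had all “WWOX” libraries higher in U87MG, and 2 had a log2FC above 0 in each of these lines. In U87MG, 2 of 76 genes fell and none rose, with a median of −0.12, where 3.2% of all tested genes were called and 1.66% were called lower. MAP3K14, which encodes the kinase NIK at the head of the non-canonical arm, was at 37.1, 73.7, and 86.0 CPM in “Vec” and 13.4, 18.9, and 35.5 in “WWOX” (−1.61 ± 0.367, adjusted p = 0.0122). IL1B, the gene of the activating cytokine interleukin 1 beta, was at 36.0, 19.9, and 51.8 CPM against 13.2, 12.5, and 7.03 (−1.68 ± 0.402, adjusted p = 0.0173). Both calls were lost in a model of U87MG alone and that of IL1B also with a pseudocount of 0.1, the replicate block, edgeR, and DESeq2. MAP3K14 was also lost when Vec 2, Vec 3, WWOX 1, or WWOX 2 was left out, and IL1B without Vec 3 or WWOX 3. RELB, the subunit downstream of MAP3K14, had a log2FC of −0.077 in this line. Neither change differed between lines past the threshold (IL1B between U87MG and U251MG −2.06, adjusted p = 0.0761). In the mean of U87MG, U251MG, and DBTRG-05MG, limma called MAP3K14 lower (adjusted p = 0.0303), the only 1 of the 76 genes, where 2.3% of tested genes were called. With edgeR that call was lost (adjusted p = 0.0722). MAP3K14 averaged 108 CPM in U251MG “Vec” and 75.6 in “WWOX”, and 17.0 and 13.7 in DBTRG-05MG.

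In T98G, limma called none of the 76 genes, 9 had an unadjusted p under 0.05 (11.5% of all tested genes did), and edgeR, limma-voom, and DESeq2 called none. The log2FC was below 0 in 52 of the 76 genes, where 54.1% of all tested genes had this. On CPM before the scaling, 17 had all “WWOX” libraries lower, where 10.3% of all tested genes did, and 3 had all higher. Below 0 were 6 of 6 chemokines, 5 of 5 I-kB proteins, 10 of 12 genes for adhesion, enzymes, and survival, 8 of 10 kinases, and 10 of 14 adaptors and ubiquitin enzymes. Of the chemokines, CXCL6 had at most 3 tags and CXCL2 at most 8 in a T98G library, so a few tags decide their direction. In contrast, 4 of 7 cytokines and growth factors (median 0.48), 6 of 9 deubiquitinases and brakes (0.13), and 4 of 7 upstream receptors (0.098) were above 0. The 17 genes included PTGS2 (cyclooxygenase, −1.38), VCAM1 (−0.83), ICAM1 (−0.63), and IRF1 (−0.78), as values that did not pass. For the 76 genes the median was −0.22 here, 0.17 for U251MG, and −0.0084 for DBTRG-05MG. In U251MG, limma, edgeR, limma-voom, and DESeq2 called none, and 3 genes had an unadjusted p under 0.05. In DBTRG-05MG, CXCL6 was the only one of the 76 genes called by limma. Receptors for the secreted members were scarce: CXCR1, ACKR1, and CCR4 had no tags, CCR2 had at most 2 tags and CXCR2 at most 6 in a library. For IL6, the signaling chain IL6ST was at 13.8 to 301 CPM and the receptor IL6R at 0.236 to 8.18, and none of the 5 tested genes of this group, SOCS3 and STAT3 included, was called by limma in a line.

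Immediate early genes, which respond within minutes to serum, medium change, or handling, were followed beside the members. Of 11 tested, 10 had a log2FC above 0 in U87MG (48% of all tested genes did), 11 in U251MG (49.7%), 5 in T98G (45.5%), and 1 in DBTRG-05MG (50.5%), with medians of 1.14, 0.84, −0.069, and −0.29. Limma called none, with 4, 3, 0, and 1 genes at an unadjusted p under 0.05 in U87MG, U251MG, T98G, and DBTRG-05MG, where 11.5%, 11.5%, 11.5%, and 7.63% of all tested genes had this. FOS had a log2FC of 2.27 in U87MG (adjusted p = 0.107) and 1.41 in U251MG (adjusted p = 0.472). IER3, an immediate early gene itself, had a log2FC of −0.016 in U87MG, 0.52 in U251MG, −5.63 in T98G, and 0.089 in DBTRG-05MG. The part of these genes in the changes of the members was not tested.

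Members were also compared in how they varied among replicates of one group. Deviations of each library from its group mean were correlated between members over the 24 libraries, which share 8 group means, and this is a description of these libraries. The same was not computed for other genes, and whole libraries deviated as well. Over all tested genes, the median absolute deviation was 0.402 in U251MG WWOX 1 and 0.484 in WWOX 2. Over 45 pairs the median Pearson r was 0.420, from −0.028 to 0.861, and 20 pairs exceeded 0.5. Without the U251MG “WWOX” libraries, the median over 21 libraries was 0.363 and 14 pairs exceeded 0.5. TNIP1 and NFKBIA, both brakes, had the highest r with (0.861) and without (0.841) these libraries. CXCL8 and CCL2 went from 0.8001 to 0.4003, and TNFAIP3 and CXCL8 from 0.630 to −0.012, so the high values of these pairs rested on U251MG.

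**Figure D4:**
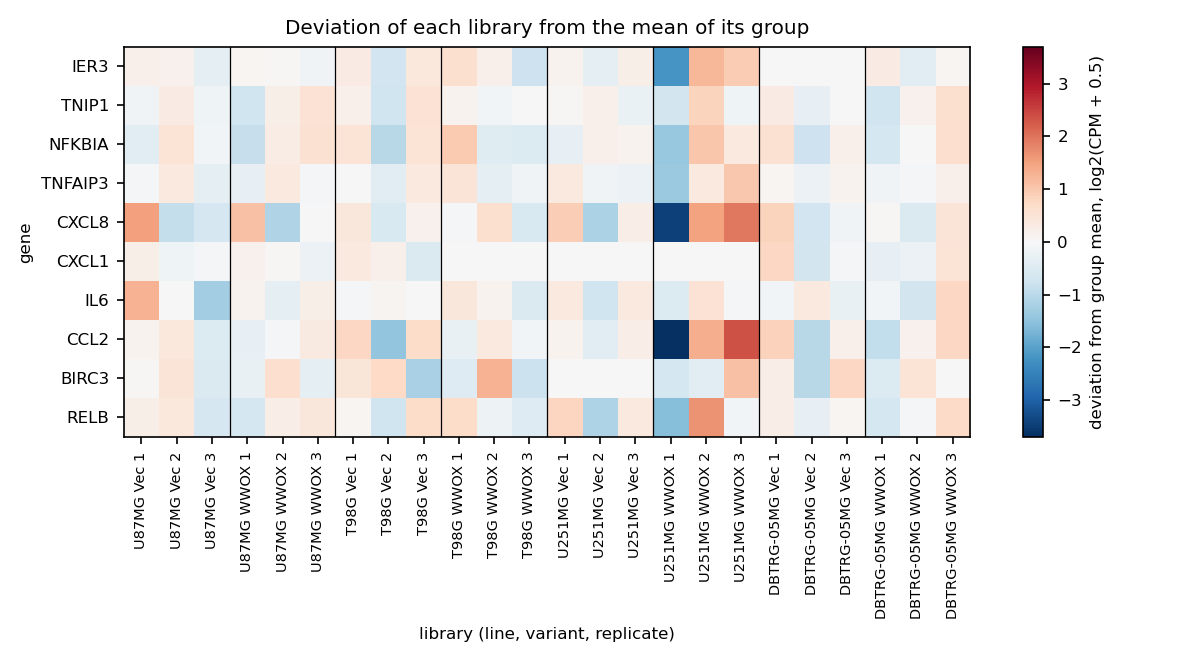
Deviation of each library (columns) from the mean of its group for each of the 10 genes (rows), as a difference in scaled log2(CPM + 0.5) on a color scale, with vertical lines between groups. U251MG WWOX 1 is below its group mean for 9 genes and level for CXCL1, with −3.44 log2 units for CXCL8 and −3.69 for CCL2, and DBTRG-05MG WWOX 3 is above its group mean for 10 of 10.

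Single libraries stood out across the members, and the same counts for other genes were not taken. U251MG WWOX 1 was above its group mean for 0 of 10 members, and WWOX 2 for 8. U87MG Vec 3 and T98G WWOX 3 were above for 0, DBTRG-05MG WWOX 3 for 10, and DBTRG-05MG Vec 2 for 2. In U251MG WWOX 1, the deviation was −3.69 for CCL2, −3.44 for CXCL8, and −2.16 for IER3, whereas in U87MG Vec 1, CXCL8 and IL6 were high (1.50 and 1.29) while NFKBIA was at −0.38.

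Across all 24 libraries, which mainly reflects the 4 lines, levels of TNFAIP3 and CXCL1 went together (r = 0.826), as did TNIP1 and NFKBIA (0.807), while IL6 ran against TNFAIP3 (−0.77) and CXCL1 (−0.74). The gene with the pattern most like a member, by Pearson r over the 24 libraries, was CXCL2 for CXCL8 (0.881), CREB3L1 for IER3 (0.937), LOXL1 for TNIP1 (0.881), and COPRS for NFKBIA (0.937). It was MMP17 for TNFAIP3 (0.906), EHD2 for IL6 (0.962), PLCD3 for CCL2 (0.849), and ZNHIT2 for RELB (0.900). For CXCL1 it was the pseudogene CLCN3P1 (0.971), and for BIRC3 the lowest of these values, 0.788, belonged to KLRK1-AS1.

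Some members share their place with genes on the opposite strand, and the use of strand in counting is not given in the sources used here. Over IER3 lie IER3-AS1 and HCG20 (0.398 to 3.19 and 0 to 1.72 CPM), over TNFAIP3 lies WAKMAR2 (0.156 to 1.86 CPM), and over IL6 lie STEAP1B (0 to 18.9 CPM) and IL6-AS1 (0 to 4.74 CPM). STEAP1B averaged 12.0 CPM in U87MG “Vec”, beside 55.2 for IL6. NFKBIA, CXCL8, CXCL1, CCL2, and RELB overlap no annotated gene, and the opposite-strand genes over TNIP1 and BIRC3 were not analysed here. Among the tested genes next to a member, ANXA6, 7129 bases from TNIP1, was called in U251MG (−1.52, adjusted p = 0.00652), where TNIP1 had a log2FC of 0.19. That call was lost in a model of U251MG alone, with the replicate block, and without U251MG Vec 3.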

How the data were processed

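CAGE libraries were made with the kit of DNAFORM. Reads were aligned to hg38 with STAR, and SAMtools and limma 3.42 are named in the submitters' processing notes. The authors deposited CPM per gene. Each CPM was a whole number of tags over the library total (100% of values, within 0.01 tags), so tags were recovered. The members and gene lists were chosen with earlier results of these data known.

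CPM were scaled by TMM factors (0.798 to 1.22), 0.5 was added, and log2 values of the 12327 genes that reached 5 CPM in 1 library or more were fitted with limma 3.58.1 (trend, R 4.3.3) in 8 groups with 16 residual degrees of freedom. Tests were two-sided with Benjamini-Hochberg adjustment and a threshold of 0.05. Their p-values measure the spread between libraries within groups, which are biological triplicates per the study's methods. This spread was estimated once per gene over all 8 groups, so the discordant U251MG “WWOX” libraries also enter the p-values of the other lines. Alternatives included edgeR 4.0.16, limma-voom, and DESeq2 1.42.0 on the tags. All members, WWOX, and called genes of the other lists are named, beside the genes most like each member, and others named for illustration (NFKB1, PTGS2, VCAM1, ICAM1, IRF1, FOS) were chosen after their values were seen. Symbols and positions came from GENCODE 44, with 43033 IDs matched and 4 not.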

Additional observations from a re-analysis of the deposited data

Results flagged for a closer look

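Changes of CXCL1 and TNFAIP3 differed between lines. CXCL1 fell in U87MG and not in DBTRG-05MG, with a tested difference of −2.43 (adjusted p = 0.00121, limma), and all 3 U87MG “WWOX” libraries were below all “Vec” libraries whereas the DBTRG-05MG libraries overlapped. TNFAIP3 differed between U87MG and U251MG by −2.26 (adjusted p = 0.0421, lost under 4 alternatives and in 18 of 24 fits with 1 library left out), and U251MG WWOX 3, at 59.7 CPM, was its highest U251MG library.

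On CPM before the scaling, TNFAIP3 had all “WWOX” libraries higher in DBTRG-05MG, and all lower in U87MG and T98G. With the scaling, DBTRG-05MG WWOX 1 was below Vec 3 and T98G WWOX 1 was above Vec 2, so the variants overlapped in both lines. Between U87MG and DBTRG-05MG the difference was −1.41 and did not pass (adjusted p = 0.347, limma). Between T98G and DBTRG-05MG it was −1.06 and was not tested.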

How the results depend on the processing

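Over 67 results for single genes and 11 alternatives, 662 values kept their direction and their side of the threshold, 45 lost and 2 gained a call, 14 changed sign, and 4 moved in size, and with single libraries left out these counts were 1464, 104, 3, and 37, with no value that moved in size. Among members called, the alternatives changed the following counts, and the cause was not tested. In U251MG, 1 was called with DESeq2. In the mean of the 3 lines, 0 were called in place of 1 with a pseudocount of 0.1, with no filter, with a mean of at least 5 CPM, with CPM as deposited, and with edgeR, limma-voom, and DESeq2. In the difference between U87MG and U251MG, 1 was called in place of 2 with no filter, with a mean of at least 5 CPM, with edgeR, and with DESeq2, and 0 with limma-voom. Between T98G and U251MG “Vec”, 1 was called in place of 2 with a pseudocount of 1, with no filter, with a mean of at least 5 CPM, and with CPM as deposited. Of the 76 other genes, U87MG had 1 called in place of 2 with a pseudocount of 0.1 and with edgeR, 5 with no filter, and 0 in a separate model. DBTRG-05MG had 0 in place of 1 with a mean of at least 5 CPM, in a separate model, and with edgeR and DESeq2, and the mean of the 3 lines had 2 in place of 1 with a pseudocount of 1 and 0 with edgeR. With single libraries left out, members called ranged from 1 to 2 in U87MG, 0 to 1 in U251MG, 0 to 1 in the mean, 1 to 2 in the difference of U87MG and U251MG, 1 to 2 between T98G and U251MG “Vec”, and 4 to 7 between U87MG and U251MG “Vec”, where U87MG Vec 2 gave the 4, and from 4 to 8 between U87MG and DBTRG-05MG “Vec”, where U87MG Vec 3 or DBTRG-05MG Vec 3 gave the 4. Other genes called ranged from 0 to 3 in U87MG, 0 to 1 in U251MG, 1 to 2 in DBTRG-05MG, and 0 to 3 in the mean.

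Signs changed where values were small or libraries disagreed. With CPM as deposited, IER3 was 0.046 in U87MG, WWOX 0.0066 in U251MG, and CCL2 0.063 in DBTRG-05MG. In U251MG, edgeR and DESeq2 gave 0.22 and 0.25 for NFKBIA, 1.15 and 1.16 for CCL2, 0.28 and 0.32 for RELB, and 0.087 and 0.077 for WWOX, and limma-voom gave 0.018 for WWOX. CCL2 in DBTRG-05MG was 1.07e-05 with a pseudocount of 0.1 and 0.0049 with limma-voom. With single libraries left out, U87MG values ranged from −0.20 to 0.068 for IER3, −1.06 to 0.24 for CXCL8, −0.86 to 0.42 for IL6, −0.17 to 0.26 for CCL2, and −0.39 to 0.24 for RELB. U251MG values ranged from −0.11 to 1.60 for IER3, −0.25 to 0.53 for TNIP1, −0.62 to 0.62 for NFKBIA, −0.33 to 2.36 for CXCL8, −1.37 to 1.64 for CCL2, −0.95 to 0.70 for RELB, and −0.30 to 0.23 for WWOX. DBTRG-05MG values ranged from −0.065 to 0.28 for IER3, −0.63 to 0.031 for TNIP1, −0.59 to 0.12 for NFKBIA, −0.16 to 0.55 for CXCL1, −0.51 to 0.45 for CCL2, −0.59 to 0.31 for BIRC3, and −0.50 to 0.17 for RELB. RELB in T98G ranged up to 0.11.

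Whether replicate numbers pair the libraries is not stated, and the correlations of deviations cannot decide it. Same-numbered deviations of “Vec” and “WWOX” correlated at −0.546 to 0.510. The same number had the highest r for U87MG 1 (0.342), T98G 1 (0.429), and T98G 2 (0.510), and another number had it for the rest. With replicate number as a block, 0 members were called in the mean of the 3 lines, 1 in the difference of U87MG and U251MG, and 1 of the other genes in U87MG. Depth limits IER3 in DBTRG-05MG and CXCL1 in T98G and U251MG, where a few tags decide the value.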
